A study of Mus musculus with 20 samples.

Results

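The Zic genes encode zinc finger transcription factors related to the GLI and GLIS proteins. In the embryo they are best known from the neural plate, the dorsal neural tube, the neural crest and the somites, where they take part in patterning and in holding cells in a progenitor state. Several of them lie in pairs with divergent starts, *Zic1* beside *Zic4* and *Zic2* beside *Zic5*, and Polycomb repressive complex 2 (PRC2), which places the repressive mark H3K27me3 and needs the subunit *Eed*, is known to keep such patterning genes silent outside their own tissues. The 4 genes described here, *Zic1*, *Zic2*, *Zic4* and *Zic5*, were chosen by symbol from the 43280 genes in the count tables, together with the accessible regions at their starts. No rule on their values was used, but earlier results of these data were known when the genes were chosen.

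Embryonic cells came from the stomach and the intestine of mice at E13.5. The labels give the strain as C57BL/6, whereas the study's methods describe mixed backgrounds, with *Eed*fl and *Rosa26*mTmG both on mixed ones, so controls and KO embryos may differ in background beyond *Eed*. Controls were *Bapx1*-cre;*Rosa26*mTmG and *Eed* KO embryos were *Eed*fl/fl;*Bapx1*-cre;*Rosa26*mTmG (KO below), so both carried the *Bapx1*-driven Cre, and the sorted GFP+ cells are those in which Cre was active or their descendants. Each of these 4 groups had 2 RNA-seq libraries and 1 list of ATAC-seq peaks called on pooled replicates. Adult GFP+ cells were sorted from the small intestine of tamoxifen-treated mice about 10 weeks old, with 2 control libraries (*Pdgfrb*Cre-ERT2;*Rosa26*mTmG) and 2 KO libraries that carried *Eed*fl/fl as well. The study's methods describe the libraries of a group as biological replicates. How many embryos entered a library, and which stomach and intestine libraries share embryos, is not given in the sources used here. Of the markers read in the embryonic cells, those of mesenchyme were the highest. The 9 gut mesenchyme markers summed to between 13500 and 24700 CPM (read counts scaled to library size, with TMM factors) in every embryonic group. Sums were 292 to 505 CPM for 4 mesothelium markers and 58.1 to 209 CPM for 10 enteric neural crest and neuronal markers. They were 66.3 to 120 CPM for 6 epithelium markers and 14.3 to 44.2 CPM for 5 endothelium markers. The 6 blood and immune markers summed to 0.551 to 2.84 CPM, with *Cd3e* at 0 throughout. The collagens *Col1a1*, *Col1a2* and *Col3a1* made up most of the mesenchyme sum, and such sums do not measure shares of cells.

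*Eed* itself was first checked as the deleted gene. Its reads fell from 1382 and 1627 counts in the control stomach libraries to 427 and 270 in the KO stomach, and from 1356 and 1193 to 407 and 301 in the intestine. The log2 fold change was -2.11 (SE 0.21, adjusted p = 0.0017) in the stomach and -2.02 (SE 0.21, adjusted p = 0.0046) in the intestine by the edgeR quasi-likelihood test with Benjamini-Hochberg adjustment over all 16218 genes tested, the method behind every adjusted p below. All 4 embryonic KO libraries lay below all 4 controls.

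The genes occupy 2 places in the genome (build GRCm38). By the gene models in the count files, *Zic1* lies on the minus strand at chr9:91358058-91365810 and *Zic4* on the plus strand at chr9:91362413-91389348, so that the outermost *Zic4* start falls inside *Zic1* and the starts are 3397 bp apart. *Zic5* lies on the minus strand at chr14:122456795-122465677 and *Zic2* on the plus strand at chr14:122475435-122479852, with starts 9758 bp apart and no overlap. The RefSeq start of *Zic4* is at position 91368972, outside *Zic1*. Where the models overlap, reads of *Zic1* and *Zic4* can be told apart only by strand. The embryonic kit keeps strand, but the strand setting of its counting is not given in the sources used here, and the adult libraries were unstranded.

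The promoters are shown because the genes that had no reads in control cells nonetheless carried accessible regions within 1000 bp of their gene model starts, described further down. Those regions cover the bases printed here only in part. For *Zic4* they cover 0 of the 250 bases in every list. For *Zic5* they cover 74 in the control stomach, 46 in the KO stomach, 0 in the control intestine and 45 in the KO intestine. RefSeq promoter sequences (GRCm38.p6) were found for 3 of the 4 genes, *Zic1*, *Zic4* and *Zic5*, and *Zic2* is named only. The 250 bases before each RefSeq start are given 5′ to 3′ on the gene's strand, at chr9:91365769-91366018 (minus), chr9:91368722-91368971 (plus) and chr14:122465659-122465908 (minus), with every CG dinucleotide in capitals.
Zic1: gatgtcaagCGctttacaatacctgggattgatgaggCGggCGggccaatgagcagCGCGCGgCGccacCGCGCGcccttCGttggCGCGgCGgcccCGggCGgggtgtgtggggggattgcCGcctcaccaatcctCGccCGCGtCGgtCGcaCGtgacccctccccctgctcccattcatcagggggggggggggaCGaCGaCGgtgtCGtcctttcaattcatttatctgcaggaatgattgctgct
Zic4: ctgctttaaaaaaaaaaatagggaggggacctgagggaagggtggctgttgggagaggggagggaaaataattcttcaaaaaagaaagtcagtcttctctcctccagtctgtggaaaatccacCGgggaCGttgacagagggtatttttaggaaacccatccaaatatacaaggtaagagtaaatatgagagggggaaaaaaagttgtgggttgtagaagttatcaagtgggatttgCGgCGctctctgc
Zic5: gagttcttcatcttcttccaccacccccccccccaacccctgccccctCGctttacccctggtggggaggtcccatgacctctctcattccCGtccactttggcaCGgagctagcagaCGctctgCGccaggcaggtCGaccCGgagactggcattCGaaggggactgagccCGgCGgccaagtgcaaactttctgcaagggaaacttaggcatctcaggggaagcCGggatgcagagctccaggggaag
The *Zic1* promoter was the richest of the 3 in CG, with 27 dinucleotides in these 250 bases and 31 over the 300 bases of the RefSeq entry, a number that 10.6% of the 32851 promoters in the table reached. The *Zic5* entry held 15 (34.6% of promoters held as many) and the *Zic4* entry held 8 (48.7%), beside a median of 7. Searched on both strands of the 300 bases, GGGCGG occurred 3 times in *Zic1*, once in *Zic5* and not in *Zic4*, and 35.7% of all promoters held it. CCAAT occurred 2 times in *Zic1* alone of the 3 (37.4% of all promoters), and TATAAA in none of them (13.6%). No match of one motif overlapped a match of another in these entries (0 in each), and a match describes the letters only.

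In the control embryo the Zic genes were close to undetectable. *Zic1*, *Zic4* and *Zic5* had 0 counts in each of the 4 control libraries, and *Zic2* had 0 counts in 3 of them and 1 count in replicate 2 of the control intestine. Embryonic libraries held between 30236159 and 39606157 counts on genes, so a count of 0 in 1 library allows a level of up to 0.0765 to 0.101 CPM, depending on its depth (3 counts of the total). Such limits, and the counting intervals below, cover counting error only. Control organs could not be compared for genes at 0 in both, and *Zic2* at 1 count against 0 gave no call. Between the control organs 0 of 4 Zic genes were called by edgeR, 0 had an unadjusted p under 0.05 and 0 were called by DESeq2, beside 5.07% of all genes called in either direction. Genes at 0 in both organs could not have been called, so these counts are a description only.

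Without *Eed*, all 4 genes were detected in both organs, and *Zic1* by far the most. In the stomach, *Zic1*, which acts in the dorsal neural tube, the cerebellum and the somites, had 1425 and 1662 counts (38.2 and 45.6 CPM) against 0 and 0. That is at least 1030-fold higher, with the lower bound set at 3 counts over the control group. The KO stomach libraries stood close together, 1.19-fold apart, and neither control library held a read. The fitted log2 fold change was 13.55 (SE 0.83, adjusted p = 0.0012), which for a gene at 0 in the control depends on the prior count of the fit and is no bound.

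*Zic2*, known for its part in forebrain midline and neural crest development, had 53 and 90 counts in the KO stomach (1.42 and 2.47 CPM) against 0 and 0. It was at least 47.7-fold higher and its log2 fold change passed the call (9.12, SE 1, adjusted p = 0.0044). *Zic4*, the partner of *Zic1* in the cerebellum, had 41 and 61 counts (1.10 and 1.67 CPM) against 0 and 0, at least 34.0-fold higher, and also passed (8.63, SE 1.13, adjusted p = 0.013). Its call was lost without control stomach replicate 1 (adjusted p = 0.056) or 2 (0.065), without KO stomach replicate 2 (0.058), and with 1 spike-in factor in the fit (0.062). *Zic5*, the neighbour of *Zic2* that acts in neural crest formation, had 11 and 14 counts (0.295 and 0.384 CPM) against 0 and 0. Its bound was at least 8.33-fold, and it did not pass (log2 fold change 6.61, SE 1.54, adjusted p = 0.065), although its groups did not overlap.

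In the stomach, then, 3 of 4 Zic genes rose, or 2 of 4 where the call of *Zic4* was lost. In the same comparison 4.84% of all genes tested were called higher and 0.808% lower. The groups of all 4 did not overlap, which held in that direction for 27.7% of all genes tested. The median fitted log2 fold change over the 4 was 8.88, and that over all genes was 0. These counts and the median are a description only: with 0 counts in the control stomach, the 4 genes passed the filter on low counts through KO libraries, which fixed their direction, and their fitted values are no bounds. With 2 libraries against 2, an exact two-sided permutation test of a single gene cannot go below 0.333, so no such test is given. In bulk RNA, more cells with a transcript and more transcript per cell cannot be told apart.

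The intestine showed the same genes at lower levels. *Zic1* had 89 and 177 counts (2.35 and 5.05 CPM) in the KO intestine and 0 and 0 in its control, at least 79.4-fold higher, with a log2 fold change of 10.04 (SE 1.04, adjusted p = 0.012). It was the one Zic gene called there, 1 of 4, beside 2.38% of all genes called higher and 0.228% lower. As in the stomach, the filter fixed the direction of genes at 0 in the controls, so this count is a description. Its KO libraries differed 2.15-fold from each other, more than in the stomach, but both lay above both controls.

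*Zic2* had 14 and 20 counts (0.369 and 0.570 CPM) in the KO intestine against 0 and 1, a ratio of 30.4 with a 95% exact counting interval of 5.11 to 1240, and a log2 fold change of 4.64 (SE 0.93, adjusted p = 0.057). *Zic4* had 8 and 19 counts (0.211 and 0.542 CPM) against 0 and 0, at least 8.06-fold higher (log2 fold change 6.75, SE 1.42, adjusted p = 0.084). *Zic5* had 1 and 7 counts (0.0264 and 0.2 CPM) against 0 and 0, at least 2.39-fold higher (5.03, SE 1.96, adjusted p = 0.34). None of these 3 passed the call, yet in each the KO libraries lay above the controls, as for 21.8% of all genes tested. The stomach and intestine comparisons use different libraries but share 1 estimate of the spread. *Zic1* in the intestine lost its call when either control library was left out (adjusted p = 0.080 and 0.064).

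**Figure D1:**
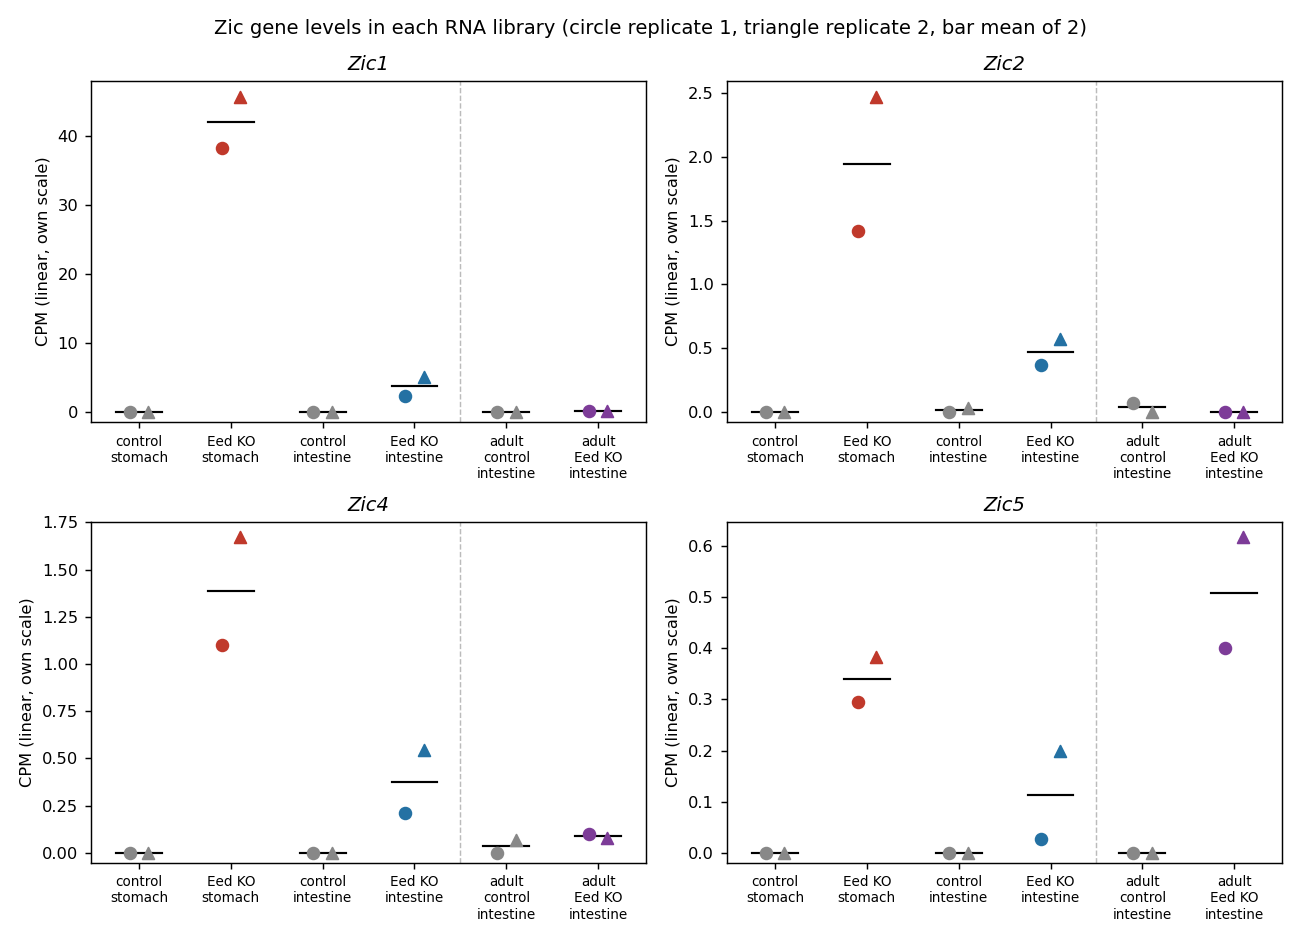
Level of each Zic gene in the 12 RNA libraries, in CPM on a linear axis with its own scale per gene; points are libraries and bars are means of 2. In the embryo the KO stomach libraries are highest for all 4 genes and the control libraries sit at or near 0, and in the adult the *Zic5* libraries of the *Eed* KO lie at 0.401 and 0.617 CPM.

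Per length, the order of the genes was much the same in every *Eed* KO library. On the TPM scale (counts divided by the exonic length of the gene models and scaled to a common sum), *Zic1* was at 21.1 and 26.2 in the KO stomach and at 1.22 and 2.76 in the intestine. *Zic2* followed at 1.55 and 2.80 TPM in the stomach and 0.379 and 0.616 TPM in the intestine. *Zic4*, whose model is the longest at 10335 bases, was at 0.334 and 0.529 TPM in the stomach and *Zic5* at 0.190 and 0.257 TPM, so the highest *Zic5* library was below the lowest *Zic4* library but the pair was near in level. In the intestine the values of *Zic4* (0.0604 and 0.163 TPM) and *Zic5* (0.0160 and 0.127 TPM) overlapped between libraries, though *Zic4* was above *Zic5* within each library. This difference was not tested. Of the summed TPM of the 4 genes, *Zic1* made up 91.0% and 87.9% in the KO stomach libraries and 72.8% and 75.3% in those of the intestine, while *Zic2* took 6.69% and 9.41% in the stomach and 22.6% and 16.8% in the intestine.

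The organs differed without *Eed*. *Zic1* was 11.5 times as high in the KO stomach as in the KO intestine (95% exact counting interval 10.1 to 13.1), and its log2 difference, intestine over stomach, passed the call (-3.51, SE 0.37, adjusted p = 0.0077). This was 1 of 4 Zic genes, beside 2.94% of all genes tested that were called lower in the KO intestine. *Zic2* was 4.16 times as high in the stomach (2.85 to 6.24), *Zic4* 3.74 times (2.43 to 5.94) and *Zic5* 3.09 times (1.35 to 7.93). In the fit without pairing of libraries none of these 3 passed, with log2 differences of -2.05 (SE 0.48, adjusted p = 0.060), -1.88 (SE 0.54, adjusted p = 0.12) and -1.59 (SE 0.81, adjusted p = 0.36). With same-numbered stomach and intestine libraries of a genotype as pairs, *Zic2* (-2.03, SE 0.34, adjusted p = 0.0078) and *Zic4* (-1.92, SE 0.39, adjusted p = 0.017) passed as well. The organs of each animal were separated, but that the numbers mark shared embryos is not stated. For each of the 4 genes both stomach libraries lay above both intestine libraries, which held for 23.9% of all genes tested. *Eed* transcript left in the *Eed* KO cells did not pass between the organs (log2 difference 0.04, SE 0.21, adjusted p = 0.96).

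**Figure D2:**
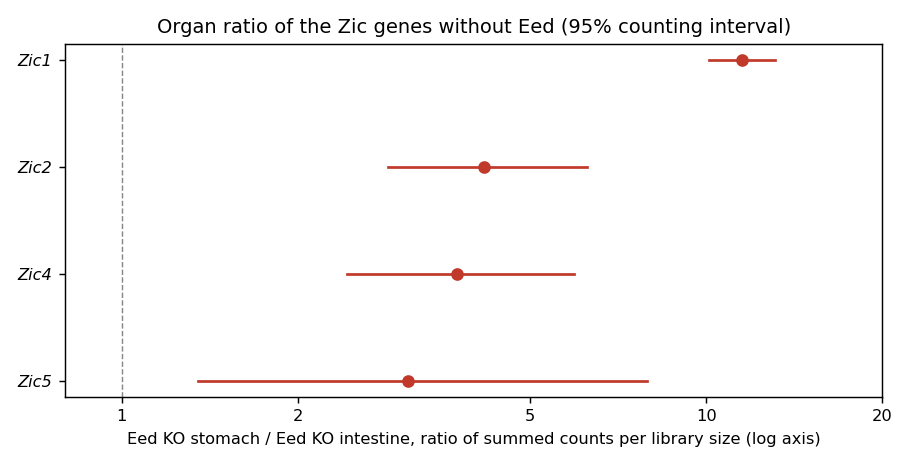
Ratio of KO stomach to KO intestine for each Zic gene, from counts summed over 2 libraries and divided by library size, on a log axis; lines are 95% exact counting intervals and leave out the spread between libraries. All 4 ratios are above 1, and that of *Zic1* (11.5) is above the intervals of the other 3 genes.

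Whether the organ difference itself changed with *Eed* could be tested for *Zic2* alone. Its interaction gave 4.48 on the log2 scale (SE 2.45, adjusted p = 1.0) and rested on the single count in a control intestine library. For *Zic1*, *Zic4* and *Zic5* both control groups were at 0, so the interaction could not be fitted to a usable value. By edgeR 0 of 4 were called, 0 had an unadjusted p under 0.05, and 0 were called by DESeq2, beside 0.462% of all genes. As most of the 4 had no usable value, these counts are a description only and no negative result.

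Within each organ, replicate 2 of the *Eed* KO held more of every Zic gene than replicate 1, by 1.19 to 1.74 times in the stomach and by 1.54 to 7.57 times in the intestine. *Eed* itself was lower in the same libraries, at 0.646 times replicate 1 in the stomach (11.5 and 7.40 CPM) and 0.800 times in the intestine (10.7 and 8.58 CPM). This order was not particular to the Zic genes. *Gli1*, *Gli2*, *Gli3*, *Glis2* and *Glis3* were also higher in replicate 2 of both organs, and *Glis1* in the intestine only. *Gli2*, for one, had 67.5 and 108 CPM in the KO stomach. Deviations of same-numbered KO libraries correlated at 0.714 between the organs, so the organs are not separate observations. The share of all genes with this order was not counted, and the part of remaining *Eed* transcript in the Zic levels was not tested.

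*Zic1* was set against the other genes with no reads in control cells. Over the 4 embryonic control libraries 19850 genes had 0 counts, and 30 of these reached the test. Of the 30, 27 were called higher in the stomach without *Eed*. In the intestine 11 were, all of them among the 27. A gene at 0 in the control enters the test only through its *Eed* KO level, so these counts were fixed in direction by the filter and are a description. *Zic1* had the highest KO stomach level of all these genes (mean 41.9 CPM), followed by the posterior homeobox gene *Hoxb13* (16.1 CPM), the eye homeobox gene *Vax2* (9.77 CPM), *Tfap2b* (4.84 CPM) and *En2* (2.97 CPM). In the intestine its rank was 3, at 3.70 CPM, behind *Hoxb13* at 7.66 CPM and *Vax2* at 4.47 CPM. *Zic4* ranked 11 and *Zic5* ranked 28 in the stomach.

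The 27 genes were chosen by their call in the KO stomach, which favours a higher level there, so their organ difference is a description beside *Zic1*. Of the 27, 26 had a higher mean in the KO stomach than in the KO intestine, with a median log2 difference, intestine over stomach, of -1.45. The value for *Zic1* was -3.51, and 2 of the 27 genes were lower still. By the call between the KO organs 6 were lower in the intestine and 1 higher.

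**Figure D3:**
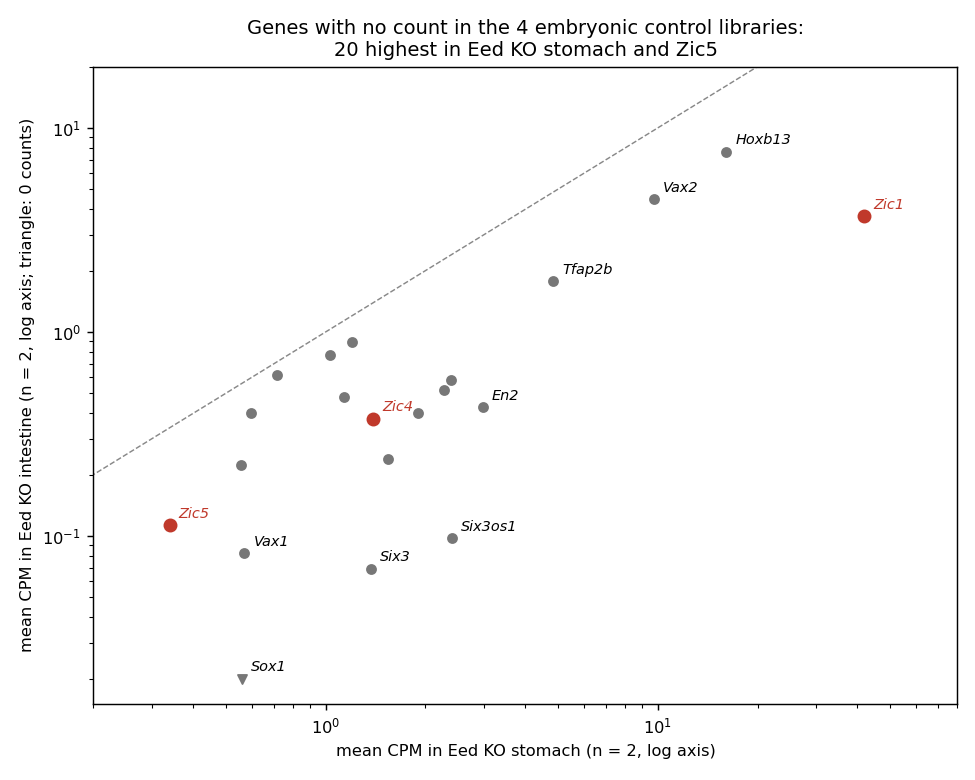
Mean CPM in the KO intestine against mean CPM in the KO stomach, both on log axes and n = 2 each, for the 20 genes highest in the KO stomach among those with no count in the 4 embryonic controls, and for *Zic5*; the dashed line marks equal levels and the triangle a gene at 0 in the intestine. *Zic1* lies farthest to the right at 41.9 CPM and, at 3.70 CPM in the intestine, well below the line.

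The 6 GLI and GLIS genes, which share the zinc finger type and include the transcriptional effectors of Hedgehog signaling, gave no call in the embryo. Of all genes, 4.84% were called higher and 0.808% lower in the stomach, and 2.38% and 0.228% in the intestine. In lists as short as these and the Hedgehog list below, 0 calls is near those shares and is a description only. In the stomach edgeR called 0 of 6 (median log2 fold change 0.22, beside 0 over all genes), 1 had an unadjusted p under 0.05 and DESeq2 called 0. In the intestine edgeR called 0 of 6 (median 0.09, beside 0.01), 0 had an unadjusted p under 0.05 and DESeq2 called 0. *Gli3*, which acts mainly as a repressor of Hedgehog targets, averaged 140 CPM ± 12.7 (SD, n = 2) in the control stomach and 141 CPM ± 29 (SD, n = 2) in the KO stomach. Of 10 Hedgehog pathway genes, ligands, receptors and regulators together, edgeR called 0 in either organ. An unadjusted p under 0.05 was seen for 4 of them in the stomach, where DESeq2 called 1. In the intestine these numbers were 2 and 0.

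Some other genes of the tissues in which Zic genes normally act did rise. Their counts are read beside the 4.84% (stomach) and 2.38% (intestine) of all genes called higher, and members at or near 0 in the controls, such as *Tfap2b*, *Lmx1b*, *En1*, *En2*, *Pax6* and *Pax1*, passed the filter through KO libraries, so the counts are a description. Of 19 genes of the neural plate border and dorsal neural tube, 13 were tested and 7 rose in the KO stomach and 6 in the KO intestine, with none lower. *Foxd3*, *Snai1*, *Snai2* and *Tfap2c* were called in neither organ, and *Sox9* not in the stomach. The sum of the 19 overlapped between KO and control. It was 141 to 201 CPM in the control stomach and 155 to 169 CPM in the KO stomach. In the intestine it was 158 to 173 CPM and 154 to 167 CPM. Most of this sum was *Snai2*, which averaged 151 CPM in the control stomach and 118 CPM in the KO stomach. In the intestine *Snai2* averaged 153 CPM in the control and 133 CPM in the KO. The sum thus says little about the other genes of the list. *Tfap2b* had 0 counts in the controls and 141 and 215 in the KO stomach, with a log2 fold change of 10.43 (SE 1.16, adjusted p = 0.0079), and *Tfap2a*, its partner in neural crest induction, rose by 6.11 (SE 0.45, adjusted p = 0.00059). *Lmx1b* (7.2) and *Pax3* (4.86), a factor of dorsal neural tube and dermomyotome, also rose in the stomach. *Pax3* (6.68, SE 1.2, adjusted p = 0.041) and *Msx2* (4.74) rose in the intestine. *Wnt1*, the roof plate ligand, was at 0 in all 8 embryonic libraries. Between the KO organs 4 of these 13 genes were called lower in the intestine, as were 4 of 7 and 5 of 9 tested genes of the central nervous system and somite lists, beside 2.94% of all genes.

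Of 11 central nervous system genes, 7 were at 0 in the control stomach and 8 in the control intestine. Of the 7 tested, 6 rose in the stomach (4.84% of all genes) and 5 in the intestine (2.38%). *En1*, a midbrain and hindbrain homeobox gene, had a log2 fold change of 10.47 (SE 1.16, adjusted p = 0.0045) in the stomach and 5.85 (SE 1.07, adjusted p = 0.044) in the intestine, and *Pax6*, of eye and forebrain, 9.09 (SE 0.89, adjusted p = 0.0028) and 8.71 (SE 1.35, adjusted p = 0.026). The summed level of these 11 genes was 0.956 to 1.30 CPM in the control stomach and 34.1 to 44.1 CPM in the KO stomach. Of 10 somite and sclerotome genes 9 were tested, and 6 rose in the stomach (4.84% of all genes) and 3 in the intestine (2.38%). They included *Pax9* (6.25 and 3.91) and *Foxc2* (3.2 and 2.96) in both organs and *Pax1*, the sclerotome factor (9.41, SE 1.91, adjusted p = 0.045), in the stomach. None was called lower, and 3 were not called in the stomach and 6 in the intestine. *Tcf15* averaged 1.39 CPM in the control stomach and 1.13 CPM in the KO stomach, and 3.39 and 2.95 CPM in the intestine. *Myf5* averaged 0.472 and 0.203 CPM in the stomach. *Uncx* had no count in the embryonic libraries and was not tested.

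Markers of other cells were read beside these results. In the stomach 4.84% of all genes were called higher and 0.808% lower, and in the intestine 2.38% and 0.228%. For lists this short 0 calls is near those shares. By edgeR, 0 of 10 enteric neural crest and neuronal markers were called in either organ (2 and 4 had an unadjusted p under 0.05 in stomach and intestine, and DESeq2 called 1 and 1). Their sum was 58.1 to 70.3 CPM in the control stomach and 70.5 to 83 CPM in the KO stomach. In the intestine it was 196 to 209 CPM in the control and 101 to 172 CPM in the KO, where their median log2 fold change was 0.73. Most of this sum was *Ednrb*, which averaged 53.3 CPM in the control stomach and 59.9 CPM in the KO stomach. In the intestine *Ednrb* averaged 194 CPM in the control and 124 CPM in the KO, so the sum says little about the other markers. Of gut mesenchyme markers edgeR called 0 of 9 in either organ (3 and 3 with an unadjusted p under 0.05, DESeq2 0 and 0), of epithelium markers 0 of 6 (3 and 3, DESeq2 2 and 2) and of mesothelium markers 0 of 4 (3 and 1, DESeq2 0 and 0). Only 2 of the 6 blood and immune markers could be tested, with 0 called (2 and 0, DESeq2 1 and 0). Endothelial markers did rise. By edgeR 3 of 5 were called higher in the stomach and 1 of 5 in the intestine (4 and 4 with an unadjusted p under 0.05, DESeq2 3 and 3). Their sum went from 14.3 to 15.2 CPM to 23.7 to 43.8 CPM in the stomach. In the intestine it went from 14.9 to 19.1 CPM to 43.3 to 44.2 CPM. That sum overlapped between the *Eed* KO organs. The part of endothelial cells in the Zic levels was not tested.

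The genes whose levels followed each Zic gene most closely over the 8 embryonic libraries were chosen by Pearson correlation of log2(CPM + 0.5) among tested genes with a mean of at least 1 CPM. These values describe 8 libraries that share their group structure. *Zic1* was followed by *Shox2* (r = 0.998), *Evx1* (0.997), *Ccng1* (0.997), *Pax6* (0.996) and *Lhx6* (0.996). *Shox2*, a limb and heart homeobox gene, averaged 12.1 CPM in the KO stomach and 2.29 CPM in the KO intestine, with no control library above 0.116 CPM. *Ccng1* differed in kind, with up to 76.2 CPM in control libraries and 164 CPM in the KO stomach. *Evx1* and *En1* recurred: *Evx1* was among the 5 closest genes of *Zic1*, *Zic2* and *Zic4*, and *En1* among those of *Zic2*, *Zic4* and *Zic5*. *En1* was the closest of all to *Zic4* (r = 0.998), *Ikbke* to *Zic2* (0.996) and *Garnl3* to *Zic5* (0.989).

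The genes around *Zic2* and *Zic5* that could be tested were not called, and none could be tested around *Zic1* and *Zic4*. Within 500000 bp of a start on chromosome 14 there were 16 other genes, of which 7 were tested. By edgeR 0 were called in either organ (1 in each had an unadjusted p under 0.05, and DESeq2 called 0), with log2 fold changes from -0.38 to 0.58. Of all genes, 4.84% were called higher and 0.808% lower in the stomach, and 2.38% and 0.228% in the intestine. For 7 genes 0 calls is near those shares, so it is a description only. *Pcca*, a subunit of propionyl-CoA carboxylase whose start is 58889 bp from that of *Zic2*, had a log2 fold change of 0.05 (adjusted p = 0.78) in the stomach and -0.08 (adjusted p = 0.85) in the intestine. 2610035F20Rik starts 236 bp from *Zic2* on the opposite strand and had 1 count over the 8 libraries. On chromosome 9 there were 15 other genes, 12 of them with no embryonic count, and 0 reached the test. Of the 15, RP23-340C13.9 starts 18989 bp downstream of the outermost *Zic4* start on the opposite strand and had 11 counts in the KO stomach, 5 in the KO intestine and 0 in the controls. Reads from it and from *Zic4* are separated only where counting used strand.

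**Figure D4:**
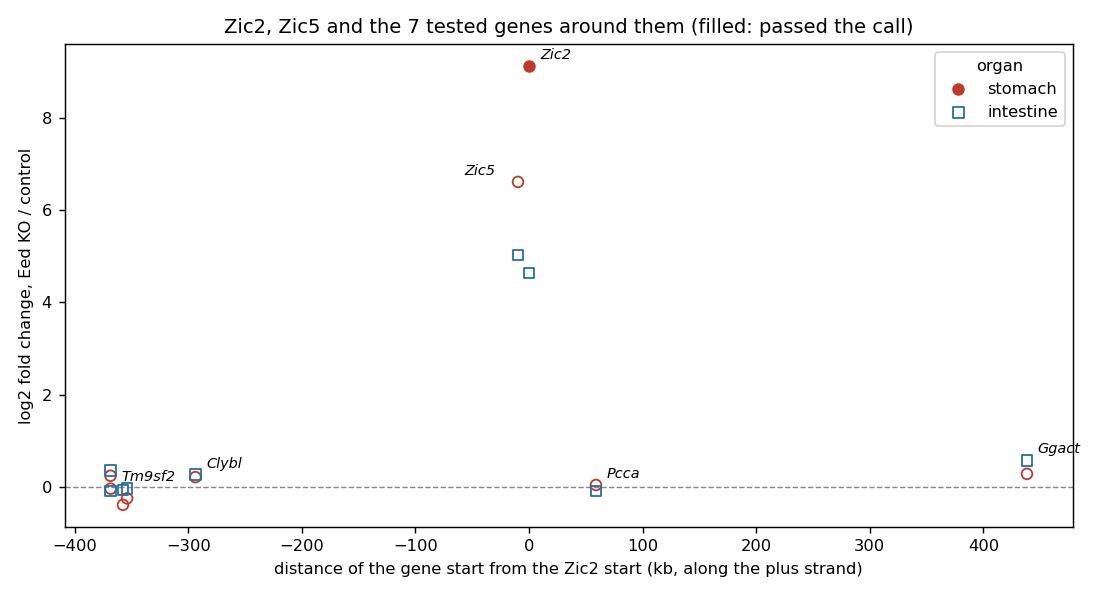
Log2 fold change of *Eed* KO over control for *Zic2*, *Zic5* and the 7 tested genes within 500000 bp, against the distance of their starts from that of *Zic2*, with circles for the stomach and squares for the intestine; filled points passed the call. The 7 neighbours lie between -0.38 and 0.58, and *Zic2* (9.12 in the stomach) and *Zic5* (6.61) stand above them.

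Accessibility at the Zic promoters was present before and after loss of *Eed*. A promoter peak was a peak within 1000 bp of the gene model start, and each of the 4 genes had 1 such peak in each of the 4 lists. Among 18845 protein-coding genes on autosomes, 69.9% to 71.9% had a promoter peak in a given list. Of the genes with 0 counts in the same condition, only 12.4% had one in the control intestine, 11.8% in the KO intestine, 12.1% in the control stomach and 10.0% in the KO stomach. The Zic genes in control cells were therefore in the minority of genes with a peak and no read, apart from *Zic2* with its 1 count in the control intestine. Each list is 1 pooled sample and has no replicate, so the values below are given side by side without a test.

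At *Zic1* the peak covered chr9:91364135-91365473 in the control stomach, with a fold enrichment over the background of the peak caller of 3.81, and chr9:91364212-91366143 in the KO stomach, with 3.21. In the stomach its edge thus stopped 337 bp short of the gene model start in the control and reached 333 bp upstream of it in the *Eed* KO. In the intestine the control peak (3.43) already reached 137 bp upstream and the *Eed* KO peak (3.06) 165 bp. Of the 250 promoter bases printed above for *Zic1*, the peak covered 0 in the control stomach, 250 in the KO stomach, 179 in the control intestine and 207 in the KO intestine. The fold enrichment was lower in the *Eed* KO of both organs, in which the transcript rose.

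At *Zic2* the peaks were 2498 bp (fold enrichment 3.20) in the control stomach, 2524 bp (3.29) in the KO stomach, 2451 bp (3.35) in the control intestine and 2655 bp (3.11) in the KO intestine, against a median width of 1075 to 1182 bp for promoter peaks. At *Zic5* they were 2841 bp (3.42), 2339 bp (3.06), 2691 bp (3.63) and 2744 bp (3.27) in the same order. *Zic4* had its peaks at the outermost model start inside *Zic1*, with fold enrichments of 3.31, 2.75, 3.5 and 3.02 in that order, where they may equally be called *Zic1* peaks. The RefSeq start of *Zic4* had none, the nearest peak lying 2829 to 3499 bp away.

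These peaks were low ones. Between 2.9% and 12.1% of all promoter peaks in a list had a lower fold enrichment than a Zic peak, and the median was 6.27 to 6.80. Among promoter peaks of genes with 0 counts the Zic peaks stood in the middle or below it, above 19.6% to 50.7% of them. The -log10 q of the Zic peaks was highest in the KO stomach for *Zic1* (13.2, against 7.73 in its control) and *Zic2* (18.2, against 7.57), but q depends on the reads pooled in a list as well as on enrichment, and the reads behind each list are not given in the sources used here.

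**Figure D5:**
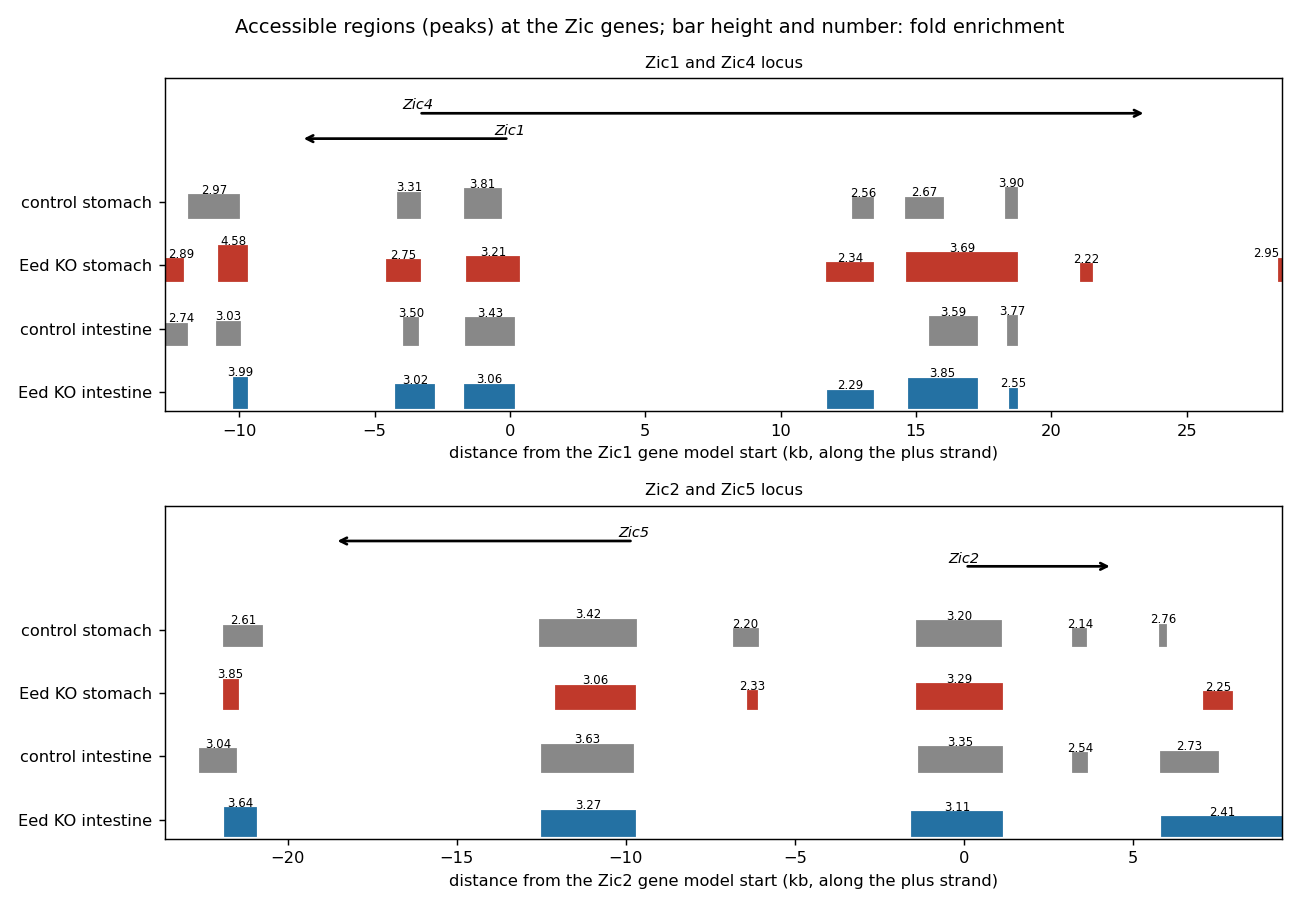
Peaks in the 4 pooled ATAC-seq lists over the Zic gene pairs with 5000 bp on either side, against distance in kb from the *Zic1* or *Zic2* start; bars span the peaks, their height and the number above give the fold enrichment, and arrows show the gene models. Promoter peaks are present in all 4 lists, and the KO stomach holds 8 peaks in the *Zic1* and *Zic4* window against 6 in each of the other lists.

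Over the wider loci, peaks covered more of the *Zic1* and *Zic4* window in the KO lists, each a single pooled list. The lists also differed as wholes. They held 115789 peaks in the control stomach and 116842 in the KO stomach, and 103808 and 119181 in the intestine. Median promoter peak widths were 1096 and 1182 bp in the stomach and 1075 and 1145 bp in the intestine. Over 41291 bp from 5000 bp outside the genes, peaks covered 15.9% in the control stomach and 27.1% in the KO stomach, and 14.5% in the control intestine and 19.7% in the KO intestine, with median fold enrichments of 3.14, 2.92, 3.47 and 3.04. Over the 33058 bp of the *Zic2* and *Zic5* window they covered 23.5% in the control stomach and 19.3% in the KO stomach, and 25.2% and 29.9% in the intestine, with no common direction. A region past the 3′ end of *Zic1* was singled out after its values were seen. It had a fold enrichment of 2.97 in the control stomach and 4.58 in the KO stomach (chr9:91355051-91356114), and of 3.03 in the control intestine and 3.99 in the KO intestine, where the control and *Eed* KO peaks overlap only in part. Inside *Zic4*, separate control stomach peaks of 1397 bp and 406 bp stood where the KO stomach had 1 peak of 4045 bp (chr9:91380487-91384531, fold enrichment 3.69).

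In the adult intestine the Zic genes stayed near the limit of detection. *Zic1* had 0 and 0 counts in the control libraries and 1 and 1 in the *Eed* KO, *Zic2* had 1 and 0 against 0 and 0, and *Zic4* had 0 and 1 against 1 and 1. *Zic5* had 0 and 0 counts in the control and 4 and 8 in the *Eed* KO (0.401 and 0.617 CPM), at least 4.88-fold higher by counts. None of the 4 passed the filter on low counts, so 0 of 4 were tested, beside 12.3% of all 15039 genes tested that were called higher and 7.23% called lower. Adult libraries held 11404712 to 15903642 counts, fewer than the embryonic ones, so that a count of 0 in 1 library allows up to 0.2098 to 0.3005 CPM, depending on its depth.

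The adult comparison differed from the embryonic one in other ways that were measured. *Eed* had 406 and 477 counts in the control and 256 and 324 in the *Eed* KO, a log2 fold change of -0.32 (SE 0.21, adjusted p = 0.32) that did not pass. The 6 blood and immune markers summed to 2250 to 2990 CPM in the control and to 80600 to 93500 CPM in the *Eed* KO, with 4 of 6 higher, and 1 lower, and the 9 gut mesenchyme markers fell from 11400 to 11900 CPM to 3480 to 4980 CPM, with 5 of 8 tested lower. The part of these cells in the *Zic5* counts was not tested.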

How the data were processed

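RNA-seq was analysed for 8 embryonic and 4 adult libraries, and ATAC-seq for 4 lists of peaks. The authors trimmed RNA-seq reads, aligned them with STAR 2.5.1b (version per the submitters' processing notes) to GRCm38/mm10 with spike-in sequences, and deposited whole-number counts per gene on GENCODE models, without normalization. The adult file headers give unstranded counting. For ATAC-seq, the authors pooled replicates and called broad peaks with MACS2 2.1.2, and deposited a fold enrichment for each peak. The deposited lists also give the -log10 q of each peak.

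Counts were tested in edgeR 4.0.16 (quasi-likelihood F-test, TMM scaling, filterByExpr) in R 4.3.3, with 4 group means over the 8 embryonic libraries and 2 in the adult fit. A gene was called at an adjusted p below 0.05 (0.2 for the interaction) where its log2 fold change also exceeded 1 in either direction. The common biological coefficient of variation was 15.8% in the embryonic and 29.1% in the adult fit. Each standard error is the log2 fold change divided by the root of F. Fold bounds used 3 counts over the group. TPM used exonic lengths from the adult files. The fit was tested on simulated data. DESeq2 1.42.0 and other scalings were alternatives.

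The genes and lists were chosen with earlier results of these data known. Named genes were the 4 Zic genes, *Eed*, genes within 500000 bp, up to 4 called genes per list and comparison, and the 5 most similar genes of each. For the group of genes silent in controls, genes were named by rank after their values were seen. 1 gene of a list is not reported here and is left out of that list's counts. Promoters, motifs and peaks were read with Python 3.11.15.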

Additional observations from a re-analysis of the deposited data

How the results depend on the processing

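No setting reversed the direction of a value between the KO organs. Against the embryonic controls none did either, but that direction was fixed beforehand. The Zic genes had 0 counts there, apart from 1 count of *Zic2* in the control intestine. In the stomach the number of Zic genes called stayed between 2 and 4, and between 2 and 3 with a library left out, *Zic4* being lost without either control stomach library or *Eed* KO stomach replicate 2, or with 1 spike-in factor (adjusted p = 0.062). *Zic5* was called there with DESeq2 (adjusted p = 0.043), spike-in scaling, no low-count filter (0.018) and the replicate block (0.037). In the intestine, where 1 Zic gene was called, 3 were called with DESeq2, 3 without the low-count filter, 3 with the replicate block and 4 with spike-in scaling, and between 0 and 1 with a library left out, 0 without either control intestine library. Between the KO organs, where *Zic1* was the 1 gene called, 2 genes were called with DESeq2 and 3 each with 1 spike-in factor, no low-count filter, the replicate block and the block that pairs same-numbered libraries within a genotype, and 1 with each library left out. The causes of these changes were not tested. Spike-in scaling moved the median log2 fold change of all genes to 2.39 (stomach) and 1.85 (intestine), with 15419 and 13664 genes called higher and 19 and 24 lower, against 785 and 386 higher and 131 and 37 lower. With 1 spike-in factor 257 and 163 were called higher and 159 and 59 lower. In the intestine DESeq2 called 628 higher and the unfiltered fit 734. With a library left out, 282 to 576 genes were called higher in the stomach and 60 to 338 in the intestine. Between the KO organs 477 genes were called lower in the intestine, 95 with spike-in scaling, 774 with the block within a genotype and 200 to 362 with a library left out, and for the interaction 75 genes were called by edgeR, with 108 higher and 99 lower by DESeq2.

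Same-numbered libraries share a number and are not stated to share embryos. Their deviations from the group mean correlated at 0.340 between the control organs, 0.714 between the KO organs and 0.104 to 0.240 between genotypes, and at -0.073 in the adult, with 2 pairs each. With the block, 1024 and 575 genes were called higher with *Eed* KO in the stomach and intestine.

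For promoter peaks, 16 of 16 pairs of gene and list held a peak, 15 at a -log10 q of at least 5, 14 where the peak had to cover the start base, and 12 with RefSeq starts, a setting chosen after seeing the data that removes all 4 for *Zic4*. Without the low-count filter adult *Zic5* had a log2 fold change of 5.71 (SE 2.47, adjusted p = 0.095). Depth limits what can be said of *Zic5*, which had 25 counts or fewer in any group.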
